A study of Rattus norvegicus with 8 samples.

Results

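The genes described here are 10 early response genes, *Egr1*, *Egr2*, *Egr3*, *Nr4a1*, *Nr4a2*, *Nr4a3*, *Ier2*, *Ier3*, *Ier5*, and *Myc*, in the Achilles tendon of the rat. They were taken by symbol from the 32883 genes of the deposited table, and all 10 were found and passed the filter on low counts, which kept 13937 genes. RNA-seq of polyadenylated RNA was available from the right tendons of 8 wild-type Sprague-Dawley (SD) rats, which the study's methods give as males of 8 to 10 weeks. In the 12 h p.r. (post-running) group, 4 rats ran uphill on a treadmill for 1 hour and were killed 12 hours later. The naïve control (NC) group held 4 rats that stayed in their cages and were killed at the same time. Tendons collected immediately after running were not analysed here, so the values are from a single time point per group.

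Early response genes, also called immediate early genes, are transcribed within minutes of a stimulus, without the need for newly made protein, and their short-lived transcripts usually decline again within hours. Serum response factor with its ETS partners and the factors that bind cyclic AMP response elements (CREB) are the classical activators. The EGR proteins are zinc finger transcription factors, the NR4A proteins are orphan nuclear receptors whose activity depends mainly on their abundance, the IER proteins are short regulators of transcription and survival, and MYC drives growth and ribosome production. In tendon, EGR1 and EGR2 are known for their part in the differentiation of tenocytes, the collagen-producing cells, and in the transcription of collagen genes.

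The libraries held 7350509 to 12951397 reads counted on genes, so that 1 read was worth 0.0755 to 0.132 CPM (reads per 1e+06 reads of the library size after TMM scaling). All 9 tenocyte markers, such as *Tnmd* and *Scx*, were detected, with summed levels of 20104 to 56114 CPM at 12 h p.r. and 34278 to 51472 CPM in NC. Markers of other cell types were detected in all 8 rats. Their summed levels were 2740 to 6704 CPM for adipocytes and 1655 to 2527 CPM for pericytes and smooth muscle. Endothelial markers summed to 1311 to 1570 CPM and Schwann cell markers to 972 to 1710 CPM. Other tissues stood out in single rats. The summed cartilage and bone markers (*Col2a1*, *Ibsp*, and 8 others) reached 1514 CPM in NC replicate 3 and 618 CPM in 12 h p.r. replicate 1, against 14.3 to 129 CPM in the other 6 rats. The 10 muscle markers of the table summed to 59487 CPM in 12 h p.r. replicate 3 and to 2438 to 11334 CPM elsewhere. Of these markers, *Mb* and *Myh7* were not high in that rat. They had 283 and 51.2 CPM there, against 308 to 773 and 238 to 757 CPM in NC. Leukocyte markers ranged from 646 to 2791 CPM at 12 h p.r. and from 902 to 3949 CPM in NC. In whole tissue, fewer cells of a type and less RNA per cell cannot be told apart. With 1 library per rat, p-values measure the spread between these rats.

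At 12 h p.r., none of the 10 genes differed from NC at an adjusted p under 0.05 in edgeR's quasi-likelihood test, in which 0.00718% of all genes tested did. The DESeq2 Wald test also called 0 of the 10 and called 0.685% of the genes for which it gave an adjusted p. Without adjustment, 3 of the 10 had a p under 0.05, against 9.51% of all genes. *Egr3* and *Nr4a3* were lower at 12 h p.r., a direction that held 4.08% of all genes at this threshold, and *Ier5* was higher, a direction that held 5.44%. The estimates were below 0 for 9 of the 10 genes and for 45.8% of all genes tested, and the same 9 to 1 split was found with the 2 other scalings tried. The median log2 fold change of the 10 genes was -0.33, against 0.02 over all genes. Such a shift was not particular to these genes. Of 10 leukocyte markers tested, 9 were also lower, and of 7 Schwann cell markers 5 were, each list with a median of -0.34. Medians were also below 0 for cartilage and bone (-0.89), red blood cell (-0.82), and adipocyte markers (-0.13). They were above 0 for tenocyte (0.39), muscle (1.45), endothelial (0.09), and pericyte and smooth muscle markers (0.34). The muscle and the cartilage and bone medians rest largely on single rats. Muscle markers summed to 59487 CPM in 12 h p.r. replicate 3 and to 2438 to 11334 CPM in all other rats. Cartilage and bone markers summed to 1514 CPM in NC replicate 3 and to 618 CPM in 12 h p.r. replicate 1. By family, the medians were -0.59 for the EGR genes, -0.59 for the NR4A genes, and -0.02 for the IER genes. Several of the 10 genes were high or low in the same rats, as described below, so they cannot be taken as independent of each other.

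**Figure D1:**
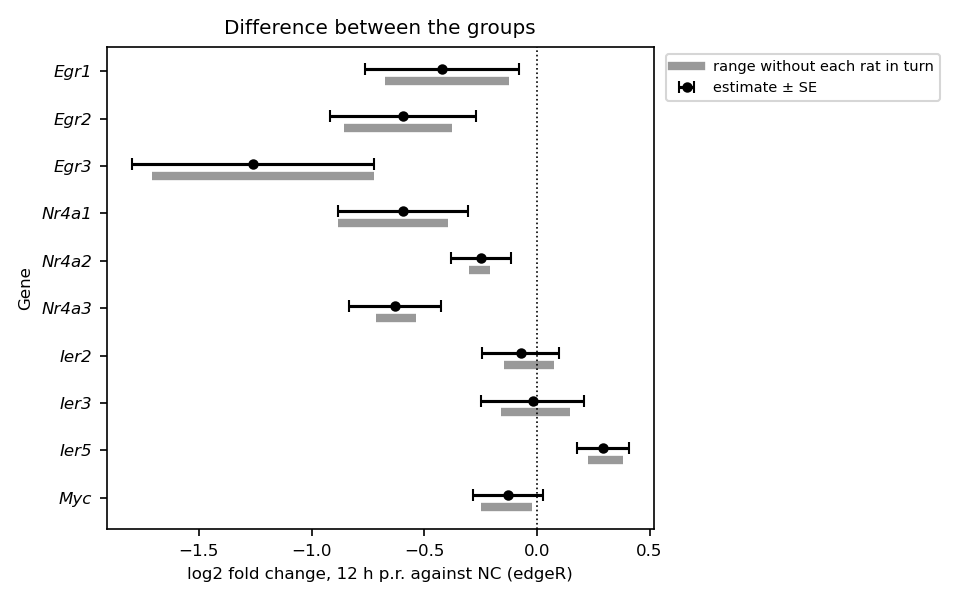
Estimated log2 fold change of each gene at 12 h p.r. against NC (x axis, edgeR), with points and bars for the estimate ± SE and grey bands for the range of estimates when each rat was left out in turn. All EGR and NR4A estimates lie below 0 and keep that side in every band, while the bands of Ier2 and Ier3 cross 0 and that of Ier5 stays above it.

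Levels of different genes were compared as FPKM, which divides by gene length. Over both groups together, the 3 IER genes led the order, with means over the 8 rats of 40.9 FPKM for *Ier2*, 29.9 FPKM for *Ier3*, and 24.2 FPKM for *Ier5*. They were followed by *Egr1* at 23.0 FPKM, *Nr4a1* at 13.9 FPKM, and *Myc* at 11.3 FPKM. The other 4 genes were low, with 2.98 FPKM for *Egr3*, 2.55 FPKM for *Nr4a2*, 1.83 FPKM for *Egr2*, and 0.709 FPKM for *Nr4a3*. A tested gene at the median had 8.67 FPKM, so 6 of the 10 genes were above the middle of the expressed genes. *Ier2* stood at the 86.3 percentile and *Nr4a3* at the 5.01 percentile of the genes tested. Some neighbours in this order were not separated beyond the spread over rats, since *Ier5* exceeded *Egr1* in 4 of 8 rats, *Nr4a1* exceeded *Myc* in 5, and *Egr3* exceeded *Nr4a2* in 3. The order of *Ier5* and *Egr1* differed by group, with means of 21.8 and 26.3 FPKM in NC and of 26.6 and 19.6 FPKM at 12 h p.r. The steps from *Egr1* to *Nr4a1* and from *Myc* to *Egr3* were seen in all 8 rats.

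Within the EGR and NR4A families, a single gene made up most of the transcript level. *Egr1* held 83.0% ± 5.83 (SD, n = 8) of the summed FPKM of the 3 EGR genes, *Egr3* held 10.1% ± 4.69, and *Egr2* held 6.87% ± 1.95. *Nr4a1* held 79.6% ± 6.21 of the NR4A sum, *Nr4a2* 16% ± 5.0, and *Nr4a3* 4.37% ± 1.41. The IER genes were more even, at 42.9% ± 2.97 for *Ier2*, 31.3% ± 4.58 for *Ier3*, and 25.8% ± 4.69 for *Ier5*.

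**Figure D2:**
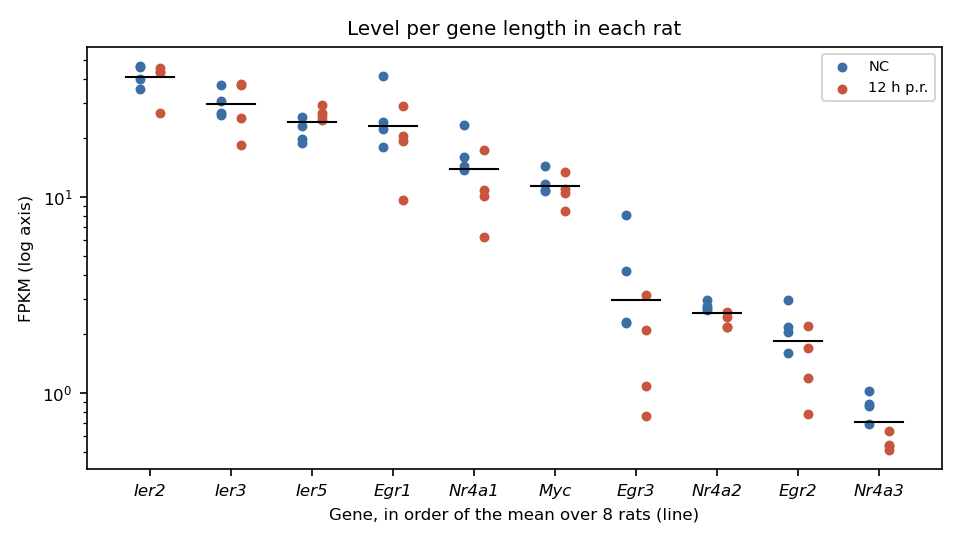
FPKM of each gene in each rat (y axis, log scale), with blue points for NC, red points for 12 h p.r., and a line for the mean over the 8 rats. The means span from 40.9 FPKM for Ier2 to 0.709 FPKM for Nr4a3, and the points of Egr3 reach from 0.757 to 8.10 FPKM.

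The RefSeq promoter windows (GRCr8, 250 bases before to 50 after the start of transcription) held 6 of the 10 genes, *Egr1*, *Egr2*, *Nr4a1*, *Nr4a2*, *Ier2*, and *Ier5*. They were searched on both strands for motifs of the known activators and of the EGR and NR4A proteins themselves. A serum response element lay in the windows of *Egr1* and *Egr2*, and in 1.64% of all 33469 windows. The cyclic AMP response element half-site TGACG lay in 5 of the 6 windows, all but that of *Ier5*, and in 21.2% of all windows. TATAAA was found for *Ier5*, and in 14.2% of windows. The EGR core GCGTGGG and the NR4A core AAAGGTC were in none of the 6 windows and in 4.33% and 3.76% of all windows. A match is a match of letters only. The bases from 150 to 1 before the start are shown for 4 genes, 1 each of the EGR, NR4A, and IER genes and a second IER gene with a different motif, with the motifs in capitals. The listed starts of *Egr2*, *Nr4a1*, and *Nr4a2* lie inside the span of their RefSeq genes, 760, 12985, and 11039 bases from the upstream end.
Egr2, chr20:21054442-21054591, minus strand: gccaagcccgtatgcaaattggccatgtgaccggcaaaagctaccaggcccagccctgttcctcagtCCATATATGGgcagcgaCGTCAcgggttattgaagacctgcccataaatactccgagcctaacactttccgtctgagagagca
Nr4a1, chr7:134259988-134260137, plus strand: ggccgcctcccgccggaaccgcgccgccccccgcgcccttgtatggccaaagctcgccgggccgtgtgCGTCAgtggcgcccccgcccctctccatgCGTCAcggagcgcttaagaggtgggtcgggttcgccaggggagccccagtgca
Ier2, chr19:40399223-40399372, plus strand: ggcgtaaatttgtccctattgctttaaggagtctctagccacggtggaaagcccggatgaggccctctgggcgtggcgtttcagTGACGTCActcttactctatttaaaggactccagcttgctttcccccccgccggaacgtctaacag
Ier5, chr13:69822543-69822692, minus strand: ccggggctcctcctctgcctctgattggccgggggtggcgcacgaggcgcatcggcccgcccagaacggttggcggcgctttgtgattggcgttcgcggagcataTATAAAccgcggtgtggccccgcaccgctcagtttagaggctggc
In *Egr2* the serum response element begins 83 bases before the start and a half-site on the opposite strand, printed as CGTCA, follows at 66 bases. *Egr1* holds 2 serum response elements, which begin 105 and 83 bases before the start, and half-sites at 135 and 66 bases. The half-sites of *Nr4a1* shown lie at 82 and 53 bases, and its window holds 2 more farther upstream. In *Ier2* a pair of half-sites on opposite strands overlap from 66 to 59 bases before the start. *Ier5* has TATAAA at 45 bases and no half-site.

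*Egr1* (ENSRNOG00000019422) encodes the most studied EGR factor, an activator of collagen genes in tendon cells. It measured 30.5, 91.6, 60.8, and 64.1 CPM in 12 h p.r. replicates 1 to 4 and 56.2, 69.3, 129.5, and 75.8 CPM in the NC replicates. The lowest value was that of 12 h p.r. replicate 1 and the highest that of NC replicate 3, with the other 6 rats mixed between them. The means were 61.8 ± 25 and 82.7 ± 32.3 CPM (SD, n = 4), and the log2 fold change of -0.42 ± 0.34 (SE) had an adjusted p of 0.724 in edgeR's test. The estimate was -0.12 without NC replicate 3 and -0.67 without 12 h p.r. replicate 2.

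*Egr2* (ENSRNOG00000000640), best known for Schwann cell myelination and also expressed in tendon progenitors, was lower in level. It measured 3.88, 7.11, 5.47, and 2.53 CPM at 12 h p.r. and 6.97, 5.15, 9.67, and 6.63 CPM in NC. 12 h p.r. replicates 1 and 4 lay below every NC rat, and the other two lay within the NC range. At -0.59 ± 0.33 (SE), the log2 fold change had an adjusted p of 0.597 in edgeR's test. The estimate was -0.38 without 12 h p.r. replicate 4 and -0.85 without replicate 2 (unadjusted p = 0.0277 in edgeR's test).

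*Egr3* (ENSRNOG00000017828) encodes a factor that shares its DNA motif with EGR1 and is itself a target of EGR and NFAT factors. It had the most negative estimate and the widest spread of the 10 genes. The values were 2.98, 5.66, 8.57, and 2.07 CPM at 12 h p.r. and 11.3, 6.13, 22.1, and 6.20 CPM in NC. The highest rat exceeded the lowest by 10.7-fold, and 12 h p.r. replicate 3 was above NC replicates 2 and 4. The lowest value, that of 12 h p.r. replicate 4, rested on 22 reads. With means of 4.82 ± 2.93 and 11.4 ± 7.49 CPM (SD, n = 4), the log2 fold change was -1.26 ± 0.54 (SE), with an unadjusted p of 0.0437 and an adjusted p of 0.507 in edgeR's test. The exact permutation test over all 70 splits of the rats (2-sided, on log2(CPM + 0.5)) gave p = 0.114. The estimate ranged from -1.71 to -0.72 when each rat was left out, and it was -0.72 without NC replicate 3 (unadjusted p = 0.172 in edgeR's test).

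**Figure D3:**
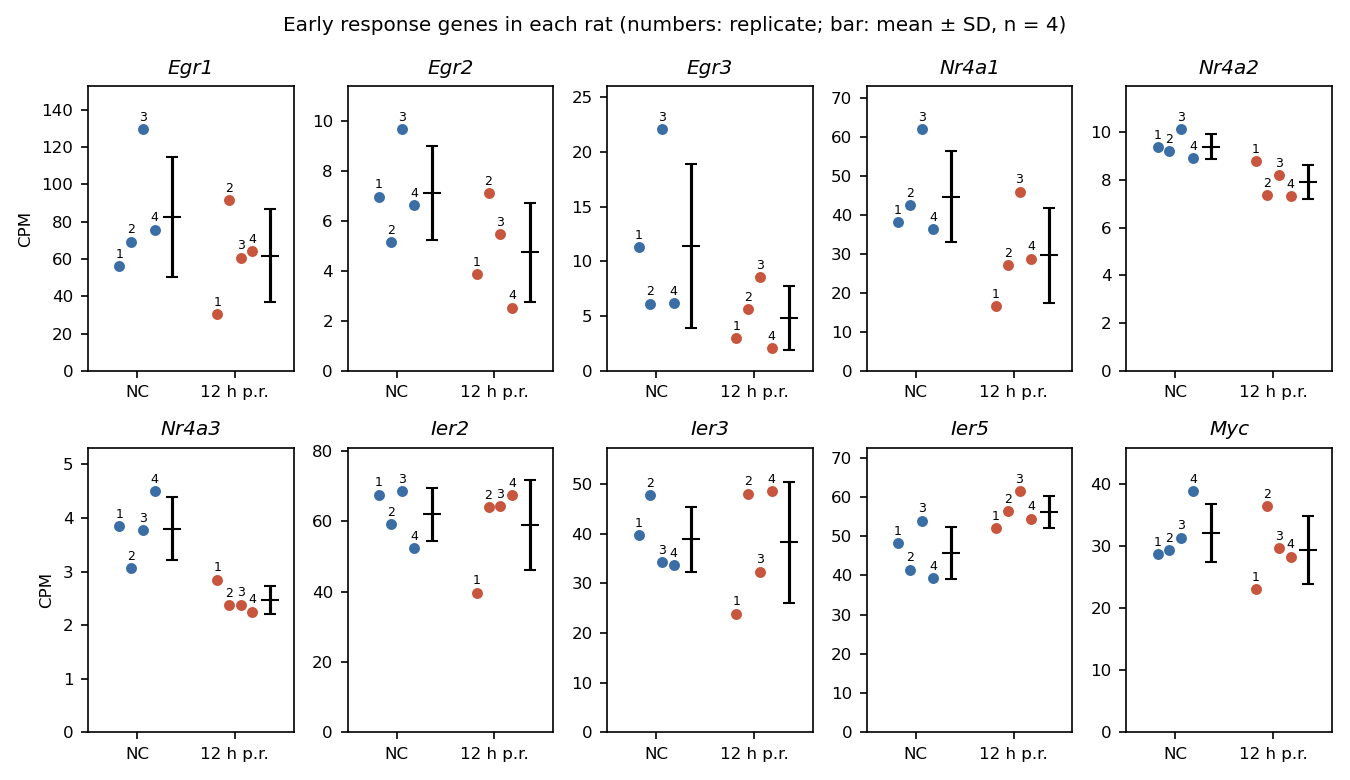
CPM of each of the 10 genes (y axes, linear and starting at 0) in each rat, with blue points for NC, red points for 12 h p.r., the replicate number above each point, and bars for the mean ± SD (n = 4). NC replicate 3 is the highest rat in 6 panels and 12 h p.r. replicate 1 the lowest in 5, and the 2 groups separate only for Nr4a2 and Nr4a3.

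*Nr4a1* (ENSRNOG00000007607), also called Nur77, encodes the founding member of the NR4A receptors and is induced by growth factors and stress. Its levels were 16.7, 27.1, 46.1, and 28.8 CPM at 12 h p.r. and 38.2, 42.6, 62.0, and 36.4 CPM in NC. Of the 12 h p.r. rats, 3 were below every NC rat, and replicate 3 was above all NC rats but replicate 3. The means were 29.7 ± 12.2 and 44.8 ± 11.8 CPM (SD, n = 4), with a log2 fold change of -0.59 ± 0.29 (SE), an adjusted p of 0.557 in edgeR's test, and an exact permutation p of 0.114. The high 12 h p.r. rat was also the one with the highest summed muscle markers. With a muscle marker score as a covariate, the estimate was -0.62 with an unadjusted p of 0.00781 and an adjusted p of 0.337 in edgeR's test. Because the muscle markers other than *Mb* and *Myh7* are highest in that same rat, the fit partly absorbs its value. The smaller p is therefore no separate support. With a leukocyte score instead, the estimate was -0.75, with an unadjusted p of 0.0380 and an adjusted p of 0.545 in edgeR's test. Without 12 h p.r. replicate 3 the estimate was -0.88, and without NC replicate 3 or without 12 h p.r. replicate 1 it was -0.40 (unadjusted p = 0.207 and 0.143 in edgeR's test).

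*Nr4a2* (ENSRNOG00000005600), or Nurr1, is known best from dopaminergic neurons and is also induced in fibroblasts and macrophages. The reads gave 8.80, 7.38, 8.21, and 7.32 CPM at 12 h p.r. and 9.38, 9.20, 10.1, and 8.92 CPM in NC. All 4 values at 12 h p.r. were below all 4 NC values, but the gap between the nearest 2 rats was 0.121 CPM, about the worth of 1 read. With a log2 fold change of -0.25 ± 0.13 (SE), edgeR's test gave an adjusted p of 0.584. The exact permutation p was 0.0286, the smallest that 4 rats against 4 allow.

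*Nr4a3* (ENSRNOG00000005964), or Nor-1, encodes the third receptor of the family and was the lowest of the 10 genes. It measured 2.85, 2.37, 2.38, and 2.25 CPM at 12 h p.r. and 3.85, 3.07, 3.78, and 4.50 CPM in NC. The groups did not overlap here either, with a gap of 0.219 CPM between NC replicate 2 and 12 h p.r. replicate 1. These values rest on 22, 18, 20, and 24 reads at 12 h p.r. and on 48, 25, 50, and 53 reads in NC. For NC replicate 2, the exact Poisson 95% interval of the level, which covers counting error only, ran from 1.98 to 4.53 CPM and held all 12 h p.r. values. The log2 fold change was -0.63 ± 0.21 (SE), with an unadjusted p of 0.0133 and an adjusted p of 0.433 in edgeR's test and an exact permutation p of 0.0286. The unadjusted p stayed under 0.05 in all 8 fits that left out a rat, with estimates from -0.71 to -0.54. On the log2(FPKM + 1) scale, where the added 1 exceeds the level of the gene, limma gave -0.26 (unadjusted p = 0.0323). In RefSeq the gene overlaps the noncoding RNA LOC134478966. Whether the authors' counting used strand is not given in the sources used here, so reads of the 2 genes may not be told apart.

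*Nr4a2* and *Nr4a3* were thus the 2 of 10 genes whose groups did not overlap, both lower at 12 h p.r., while 2.55% of all genes tested had groups that did not overlap in this direction. For these 2 genes the variance between rats of a group, divided by that of counting error alone, was 0.442 and 0.554, so no spread beyond counting error was seen at their depth. The same ratio was 116 for *Egr1*, 39.7 for *Nr4a1*, 35.8 for *Egr3*, 21.4 for *Ier3*, and 16.9 for *Ier2*, and it lay between 6.47 and 7.83 for *Egr2*, *Ier5*, and *Myc*. The ratio grows with the number of reads and does not rank the genes by their spread. The biological coefficient of variation of edgeR, which is drawn toward that of genes of like level, was 15.3% for *Nr4a2* and 18.3% for *Nr4a3*, among the 14.5% of *Ier5*, 17.5% of *Myc*, and 19.2% of *Ier2*. It was 24.0% for *Ier3*, 29.5% for *Nr4a1*, 32.3% for *Egr2*, 34.7% for *Egr1*, and 51.7% for *Egr3*.

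*Ier2* (ENSRNOG00000054344) encodes a nuclear protein and is listed as a pseudogene in the deposited annotation, whereas RefSeq lists it as protein-coding. It measured 39.7, 64.0, 64.3, and 67.4 CPM at 12 h p.r. and 67.5, 59.2, 68.6, and 52.3 CPM in NC. Apart from 12 h p.r. replicate 1, the lowest of all 8, the values at 12 h p.r. lay within the NC range. Its log2 fold change was -0.07 ± 0.17 (SE), with an adjusted p of 0.920 in edgeR's test.

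*Ier3* (ENSRNOG00000000827), or Iex-1, a stress-induced regulator of cell survival, measured 23.9, 48.1, 32.4, and 48.6 CPM at 12 h p.r. The NC rats had 39.7, 47.8, 34.3, and 33.6 CPM, all inside the 12 h p.r. range. At -0.02 ± 0.23 (SE), its log2 fold change was the nearest to 0 of the 10 genes, with an adjusted p of 0.988 in edgeR's test.

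*Ier5* (ENSRNOG00000059406) encodes a protein that promotes the activity of heat shock factor HSF1, and it was the only gene of the 10 with an estimate above 0. Its values were 52.0, 56.4, 61.5, and 54.4 CPM at 12 h p.r. and 48.3, 41.5, 54.0, and 39.3 CPM in NC. Of the 12 h p.r. rats, 3 were above every NC rat, and only NC replicate 3 was above 12 h p.r. replicate 1. The means were 56.1 ± 4.03 and 45.8 ± 6.68 CPM (SD, n = 4). The log2 fold change of 0.29 ± 0.11 (SE) had an unadjusted p of 0.0307 and an adjusted p of 0.486 in edgeR's test, and the exact permutation p was 0.0571. Leaving out each rat gave 0.23 to 0.38, with an unadjusted p under 0.05 in 4 of 8 fits.

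*Myc* (ENSRNOG00000004500) measured 23.0, 36.4, 29.6, and 28.3 CPM at 12 h p.r. and 28.7, 29.3, 31.3, and 38.8 CPM in NC. The 2 groups overlapped over most of their range, with replicate 1 of 12 h p.r. lowest and NC replicate 4 highest. An estimate of -0.13 ± 0.15 (SE) on the log2 scale came with an adjusted p of 0.821 in edgeR's test. It was -0.02 without NC replicate 4 and -0.25 without 12 h p.r. replicate 2.

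Several of the 10 genes were high or low in the same rats, though no correlation between them was computed. Each gene was centred on its own mean of log2(CPM + 0.5), and the 10 deviations were averaged per rat. The averages were -0.53, 0.06, 0.04, and -0.28 in 12 h p.r. replicates 1 to 4 and 0.14, 0.02, 0.49, and 0.06 in the NC replicates. NC replicate 3 was therefore high and 12 h p.r. replicates 1 and 4 were low, and the remaining 5 rats lay between 0.02 and 0.14 whatever their group. NC replicate 3 was above the mean for 9 of 10 genes and was the highest rat for 6 of them, including all 3 EGR genes. 12 h p.r. replicate 1 was the lowest for 5 genes and replicate 4 for 4. Some genes went the other way, with *Ier3* at -0.13 in NC replicate 3. In 12 h p.r. replicate 1, *Nr4a2* was at 0.03 and *Ier5* at 0.04.

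**Figure D4:**
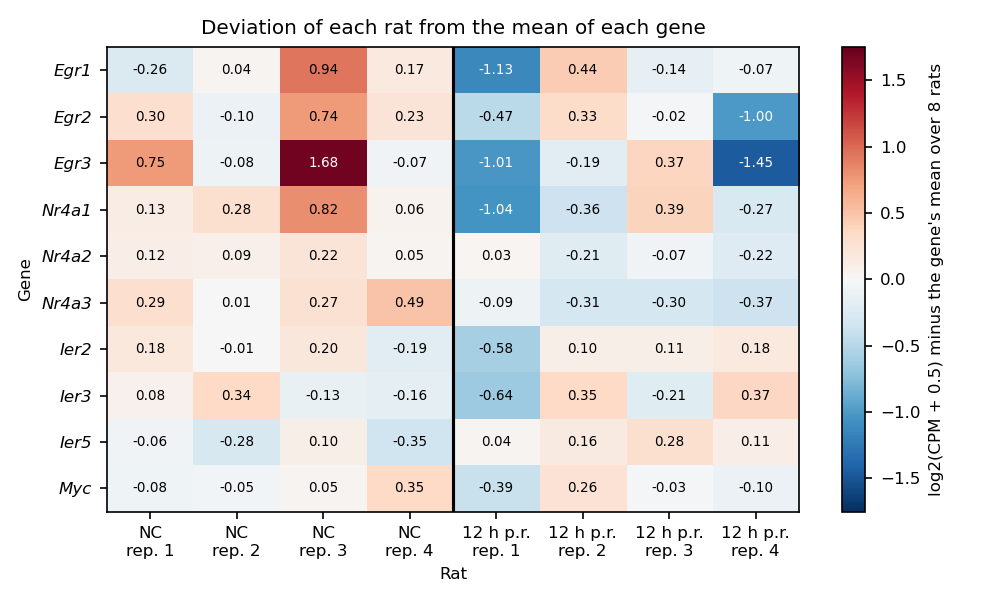
Deviation of each rat (columns) from the mean of each gene (rows) in log2(CPM + 0.5), with red for above and blue for below the mean and the value in each cell. The column of NC replicate 3 is red for 9 of 10 genes and reaches 1.68 for Egr3, and that of 12 h p.r. replicate 1 reaches -1.13 for Egr1.

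The 2 rats at the ends of this average, NC replicate 3 and 12 h p.r. replicate 1, were also the 2 with high cartilage and bone markers, at 1514 and 618 CPM. They were thus alike in those markers and opposite in the early response genes. Both were left out together for their cartilage markers, but they are also the highest NC rat and the lowest 12 h p.r. rat of the average, so that a shift of the median toward 0 was fixed by the choice. Without both rats, the median log2 fold change of the 10 genes was -0.12 and 6 of 10 estimates were below 0. *Egr3* was then at -0.55, *Nr4a1* at -0.20, and *Egr2* at -0.33, with unadjusted p-values of 0.312, 0.375, and 0.414 in edgeR's test, and *Egr1* was at 0.10. *Nr4a3* kept -0.71 (unadjusted p = 0.0301 in edgeR's test) and *Ier5* kept 0.41 (unadjusted p = 0.00814). Without NC replicate 3 alone the median was -0.18. The part of tissue composition in these differences was not tested, beyond fits with a muscle or leukocyte marker score as covariate. No such fit was run for cartilage and bone markers.

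The genes outside the family whose profile over the 8 rats lay nearest to the average of the 10 were *Trip13*, *Gpn2*, *Dnajc12*, *PVR*, and *Hsph1*. Their mean absolute difference from it was 0.0790, 0.0861, 0.0909, 0.0967, and 0.0985 on the log2 scale. The 10 genes themselves lay between 0.153 for *Ier2* and 0.533 for *Egr3* from their own average. The outside genes were picked for the smallest distance among all genes tested, so these distances cannot be set against each other. The same choice fixed the sign of their log2 fold changes. *Hsph1*, which encodes a heat shock protein, had 33.8, 43.2, 46.1, and 37.4 CPM at 12 h p.r. and 45.9, 42.7, 49.9, and 46.4 CPM in NC. Its log2 fold change was -0.21 ± 0.11 (SE), with an adjusted p of 0.587 in edgeR's test.

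Further genes of the same response were followed in a list of 46 immediate early genes, of which 43 were tested. Of these, edgeR called 0 at an adjusted p under 0.05, as did DESeq2, and 5 had an unadjusted p under 0.05, or 11.6% against 9.51% of all genes. The median log2 fold change was -0.10. The smallest p was that of *Per1*, a core clock gene that also responds to CREB and glucocorticoids. It had 83.2, 53.6, 45.3, and 45.2 CPM at 12 h p.r. and 80.6, 92.2, 87.4, and 109 CPM in NC, so that only 12 h p.r. replicate 1 reached the NC range. The log2 fold change was -0.70 ± 0.20 (SE), with an adjusted p of 0.432 in edgeR's test.

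*Klf4*, a Krüppel-like factor, did not overlap between groups, with 121 to 182.8 CPM at 12 h p.r. and 183.1 to 248 CPM in NC and a log2 fold change of -0.53 ± 0.16 (SE). *Dusp5*, a nuclear phosphatase of ERK, ran from 2.72 to 5.0 CPM and from 4.78 to 6.65 CPM, with a log2 fold change of -0.69 ± 0.24 (SE). The adjusted p-values were 0.433 and 0.448 in edgeR's test. Higher estimates were those of *Maff*, a small MAF factor, at 0.58 ± 0.18 (SE) with 33.9 to 62.8 CPM against 28.5 to 38.1 CPM, and of *Fosl1*, an AP-1 subunit, at 0.80 ± 0.28 (SE) with 3.0 to 5.53 CPM against 1.70 to 2.65 CPM. *Fosl1* fell outside the rule for naming genes and was named after its values were seen.

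Of 17 upstream factors tested, 4 had an unadjusted p under 0.05, or 23.5% against 9.51% of all genes. All 4 were higher at 12 h p.r., as were 5.44% of all genes at this threshold, and the median log2 fold change was 0.06. *Elk3*, an ETS factor that joins serum response factor at serum response elements and can repress it, had 175, 169.7, 183, and 192 CPM at 12 h p.r. and 147, 135, 128, and 141 CPM in NC. The groups did not overlap. The log2 fold change of 0.38 ± 0.09 (SE) had an adjusted p of 0.385 in edgeR's test and of 0.00937 in DESeq2's Wald test. *Elk3* was the only gene of the lists called by either tool. *Mapk3*, which encodes the kinase ERK1, had a log2 fold change of 0.32 ± 0.10 (SE), *Mef2d* of 0.40 ± 0.12, and *Creb1* of 0.54 ± 0.18. *Creb1*, which encodes a factor that recognizes cyclic AMP response elements, had 9.32 to 11.5 CPM at 12 h p.r. and 5.76 to 9.14 CPM in NC. The groups of *Mapk3* and *Creb1* did not overlap, and those of *Mef2d* did. The share of all genes whose groups did not overlap in the higher direction was not counted. Separations in that direction, here and below, therefore have no background to be read against.

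**Figure D5:**
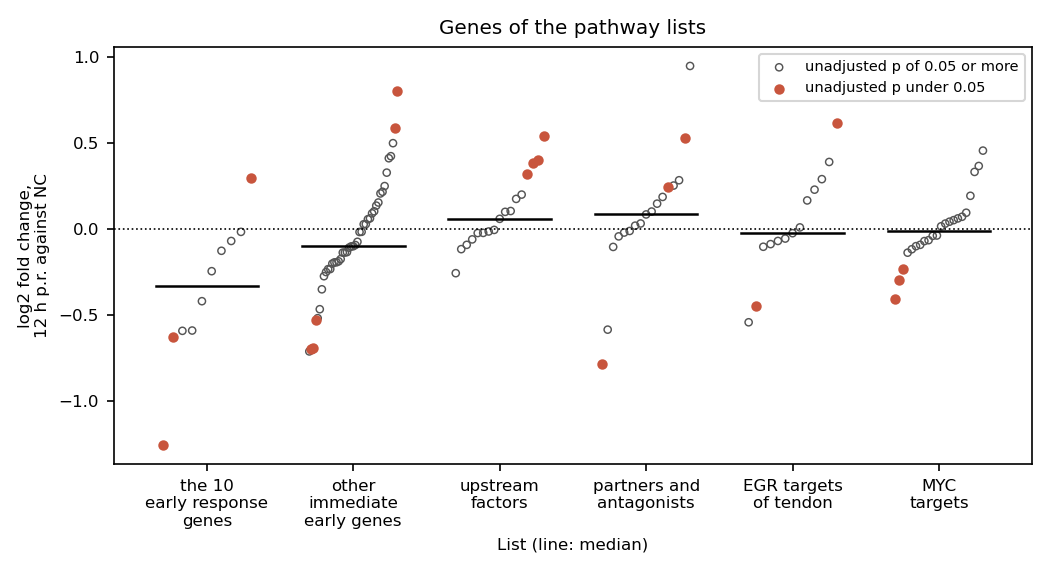
Log2 fold change at 12 h p.r. against NC (y axis, edgeR) of each tested gene of the 10 early response genes and of 5 lists of related genes, sorted within each list, with filled points for an unadjusted p under 0.05 and a line for the median. The line of the 10 genes lies at -0.33 and those of the other lists between -0.10 and 0.08, and all 4 filled points of the upstream factors lie above 0.

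Among 17 partners and antagonists of these proteins, 3 had an unadjusted p under 0.05, or 17.6% against 9.51% of all genes, with a median log2 fold change of 0.08. *Rxra*, whose receptor pairs with NR4A1 and NR4A2, was at 0.52 ± 0.18 (SE), with 35.4 to 63.5 CPM at 12 h p.r. and 28.0 to 35.6 CPM in NC. *Mxd4*, which encodes a MAX partner that opposes MYC, was at 0.24 ± 0.10 (SE), with 231 to 262 CPM against 193 to 219 CPM and no overlap. *Mycn*, a relative of *Myc*, was at -0.79 ± 0.34 (SE), at a level of 0.845 to 1.58 CPM against 1.19 to 2.45 CPM.

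Of 13 genes of the tendon matrix and its regulation listed as EGR targets, 2 had an unadjusted p under 0.05, or 15.4% against 9.51% of all genes, and the median log2 fold change was -0.03. Of the 13, 6 are also among the tenocyte markers. *Scx*, which encodes the tendon transcription factor scleraxis, had 58.0, 48.7, 45.2, and 60.6 CPM at 12 h p.r. and 36.9, 37.8, 43.9, and 20.3 CPM in NC. Every 12 h p.r. rat was above every NC rat, and the log2 fold change was 0.62 ± 0.22 (SE), with an adjusted p of 0.452 in edgeR's test. *Tgfb2*, a ligand of TGF-beta signaling, was lower, with 49.3 to 56.2 CPM against 57.1 to 85.4 CPM, at -0.45 ± 0.12 (SE) and an adjusted p of 0.432 in edgeR's test. The 2 genes thus had estimates of opposite sign.

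Of 22 MYC target genes, 3 had an unadjusted p under 0.05, or 13.6% against 9.51% of all genes. All 3 were lower at 12 h p.r., as were 4.08% of all genes at this threshold, and the median log2 fold change was -0.01. *Nop56*, a component of the ribosomal RNA methylation complex, had 36.4, 51.0, 38.9, and 45.0 CPM at 12 h p.r. and 59.2, 53.1, 54.4, and 60.9 CPM in NC, with a log2 fold change of -0.41 ± 0.12 (SE). *Ddx21*, a nucleolar RNA helicase, was at -0.30 ± 0.10 (SE), and *Eif4a1*, a helicase of translation initiation, at -0.23 ± 0.10 (SE). None of these 5 lists held a gene called by edgeR at an adjusted p under 0.05, and 17 of their 112 tested genes had an unadjusted p under 0.05, where 9.51% of all genes did.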

How the data were processed

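Right Achilles tendons of 8 rats (4 at 12 h p.r. and 4 NC) were compared, with groups and replicate numbers taken from the sample labels. Per the labels and the submitters' processing notes, libraries were stranded, reads were aligned to Rnor_6.0 with HISAT2 2.1.0 and counted with featureCounts 1.6.3. The authors deposited raw counts per Ensembl gene, and FPKM values whose factors per rat matched the size factors of DESeq2 rather than the totals. Strand use and multimapping in counting are not given in the sources used here. The deposited fold changes and p-values of the authors' own comparison (DESeq2 1.30.1) were not used.

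Counts were filtered with filterByExpr of edgeR 4.0.16, scaled by TMM, and tested with glmQLFit and glmQLFTest (R 4.3.3), with Benjamini-Hochberg adjustment over all 13937 genes. The study used DESeq2, which is an alternative here (1.42.0), as is limma 3.58.1 on log2(FPKM + 1) and log2(FPKM + 0.1). SEs were derived from the F statistic. Exact permutation tests were 2-sided, with a smallest p of 0.0286. The tests were checked on simulated counts. Promoter windows came from RefSeq (GRCr8), of another build than the counts. Same-numbered rats were not paired by the labels, and their deviations correlated between -0.20 and 0.13.

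The 10 genes, the lists, and the left-out pair of rats were chosen with earlier results of these data known. Named beside the 10 were up to 4 genes per list with the smallest unadjusted p under 0.05, the 5 nearest profiles, and markers where a library stood apart.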

Additional observations from a re-analysis of the deposited data

Results flagged for a closer look

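In 64 groups of 4 rats, over the 10 genes, their average, the 5 nearest profiles, and the genes of the lists named by rule, Dixon's test was applied to the gap between the highest or lowest rat and its neighbor. It marked 3 groups, where chance gives about 1 in 20, or 3.2 of 64. *Ier2* in 12 h p.r. replicate 1 was at 5.33 in log2(CPM + 0.5), below the next rat of its group at 6.01. *Ddx21* was also lowest in that rat, at 5.84 against 6.09. *Tgfb2* was highest there, at 5.82 against 5.66. All 3 values thus came from 12 h p.r. replicate 1, which was also the rat with the lowest average of the 10 early response genes and with 618 CPM of cartilage and bone markers, whose part in these values was not tested.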

How the results depend on the processing

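None of the 10 genes was called at an adjusted p under 0.05 in any setting with edgeR, DESeq2, or limma, against 3 at an unadjusted p. The number of genes called in the whole table was 1 with edgeR, 96 with DESeq2's Wald test, and 2 with a muscle score as covariate. It was 0 with limma on either FPKM scale, with a leukocyte score, with a fold change of at least 2, without the pair of rats high in cartilage markers, and without each rat in turn (0 to 0, with 879 to 1580 genes at an unadjusted p under 0.05), and it was 1326 at an unadjusted p. Of the list genes, DESeq2 called 1 (*Elk3*, log2 fold change 0.38), and 17 passed an unadjusted p. The median of the 10 genes stayed below 0 in every setting, from -0.41 to -0.18 without each rat in turn and at -0.12 without the pair, which holds the highest NC and lowest 12 h p.r. rat of the same average. Signs turned for 3 genes, none with an unadjusted p under 0.05 in any fit. Without the pair, *Egr1* was at 0.10, *Ier2* at 0.13, and *Ier3* at 0.091. Leaving out each rat gave -0.15 to 0.075 for *Ier2* and -0.16 to 0.15 for *Ier3*. With the muscle score, 4 of the 10 had an unadjusted p under 0.05 in edgeR's test, against 11.1% of all genes. These were *Nr4a3*, *Nr4a1*, *Ier5*, and *Egr3*. With the leukocyte score, 3 did (*Nr4a3*, *Nr4a1*, and *Ier5*), against 8.81% of all genes. As for *Nr4a1* above, smaller p-values with the muscle score are no separate support. With the replicate number as a block, 0 genes were called, 974 had an unadjusted p under 0.05, and the median of the 10 genes was -0.35. 4 of the 10 then had an unadjusted p under 0.05 (*Nr4a3*, *Nr4a1*, *Ier5*, and *Egr3*), while same-numbered rats correlated between -0.20 and 0.13 and so share only a number. Depth limits *Nr4a3*, which had 18 to 53 reads per rat, and also the lowest rats of *Egr2* and *Egr3*. In 12 h p.r. replicates 1 and 4, *Egr2* had 30 and 27 reads and *Egr3* had 23 and 22 reads.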
